A study of Mus musculus with 6 samples.

Results

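Histone H3 lysine 9 (H3K9) methylation marks silent chromatin, and a small set of genes encodes the enzymes that write the mark and the proteins that read it. The transcript levels of 10 such genes were described in Morc3 knock-out (ko) and wild-type mouse ES cells. They were chosen by symbol: the methyltransferase genes Setdb1, Suv39h1, Suv39h2, Ehmt1 and Ehmt2, the cofactor genes Trim28 and Atf7ip, and the heterochromatin protein 1 (HP1) genes Cbx1, Cbx3 and Cbx5. Their sense-strand rows make up 10 of the 24054 genes in the count files. All 10 had counts in all 6 libraries and passed the filter on low counts, as did 12222 genes in all.

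The study asked how Morc3, an ATPase, keeps endogenous retroviruses (ERVs) silent in ES cells, which are pluripotent cells kept in culture. RNA-seq was performed on 3 Morc3 ko lines, KO27-1, KO27-2 and KO27-3, and on 3 cultures of the wild-type line WT26 with the titles p42, p43 and p56. According to the study, each ko line is a single clone made with Cas9 from wild-type cells. The cells grew without feeders on gelatin in serum and LIF. When the ko lines were made, cells were transfected and selected with puromycin. No such step is described for the wild-type cultures, and no other treatment is described for either group. The meaning of the letter p was not given, and nothing states that the wild-type libraries came from separately derived cells, so that p-values measure the spread between these libraries. The ko lines are called clones 1, 2 and 3 below.

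Setdb1 trimethylates H3K9 and is brought to ERVs by the co-repressor Trim28, which in turn is bound by KRAB zinc finger proteins. Atf7ip is a binding partner that keeps Setdb1 stable and in the nucleus. Suv39h1 and Suv39h2 trimethylate H3K9 in the repeats around centromeres, whereas Ehmt1 and Ehmt2 form a dimer that dimethylates H3K9 mainly in euchromatin. The HP1 proteins bind methylated H3K9 through a chromodomain, and Cbx5, Cbx1 and Cbx3 encode HP1 alpha, beta and gamma.

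The start regions of Atf7ip and Suv39h1 are shown because these were the 2 genes with the largest differences between ko and wild type. Each window runs from 250 bases before to 50 bases after the RefSeq start (GRCm38.p6), on the strand of the gene. Atf7ip lies at chr6:136518601-136518900 on the plus strand and Suv39h1 at chrX:8074711-8075010 on the minus strand. Capitals mark the GC box GGGCGG, or CCGCCC where it lies on the other strand.
Atf7ip: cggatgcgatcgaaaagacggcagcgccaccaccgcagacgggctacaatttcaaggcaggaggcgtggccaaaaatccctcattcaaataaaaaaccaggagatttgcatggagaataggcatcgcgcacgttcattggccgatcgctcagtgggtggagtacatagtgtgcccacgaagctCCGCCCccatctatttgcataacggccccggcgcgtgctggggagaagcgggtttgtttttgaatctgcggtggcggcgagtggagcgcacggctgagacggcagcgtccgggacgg
Suv39h1: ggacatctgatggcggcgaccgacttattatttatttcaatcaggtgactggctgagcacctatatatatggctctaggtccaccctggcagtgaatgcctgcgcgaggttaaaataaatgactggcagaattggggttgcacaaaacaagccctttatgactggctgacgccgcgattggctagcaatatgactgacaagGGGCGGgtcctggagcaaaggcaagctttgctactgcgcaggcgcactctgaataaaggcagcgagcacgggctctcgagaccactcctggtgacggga
Both windows hold 1 GC box. The Atf7ip window has 29 CpG dinucleotides and the Suv39h1 window has 15.

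All 10 genes matched a RefSeq start region, and the first window listed for a gene was used. GGGCGG was found on either strand in 10 of 10 of these windows, against 35.9% of all 27025 start regions. TATAAA was found in 0 of 10, against 8.88% of all. The letters GCGCNTGCG, part of the site of the factor NRF1, were found in 4 of 10 windows, against 6.59% of all. CCAAT was present in 4 of 10, against 37.9% of all. The windows were rich in CpG, with a median ratio of observed to predicted CpG of 0.852 against 0.389 over all start regions, and a median GC content of 62.2% against 52.7%. These motifs were chosen after earlier results were known, the GC box overlaps with GC content, and a match is a description of letters and not of binding.

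Before the 10 genes were compared, the libraries were examined. Sense-strand gene counts ranged from 10740618 to 14123131 per library. Morc3 reached 77.8, 138 and 135 CPM (counts relative to the library size after TMM scaling) in clones 1, 2 and 3 and 277, 272 and 302 CPM in p42, p43 and p56. Its log2 ratio of ko over wild type was -1.28 (SE 0.16; adjusted p = 8.4e-04 in edgeR), so that Morc3 transcripts were reduced and not absent. Western blots in the study showed a loss of Morc3 protein in its knock-out clones, so that these transcript levels do not measure the protein. Morc3 was called in every alternative fit but the robust one, where its adjusted p was 0.018. The 8 ES cell markers examined, among them Pou5f1, Nanog and Sox2, summed to 5153 to 5215 CPM in ko and 4968 to 5276 CPM in wild type, and 0 of 8 were called. Markers of fibroblasts summed to 5.21 to 5.64 CPM in ko and 8.55 to 9.59 CPM in wild type. 3 of these 4 markers stayed under 1 CPM in every library, with Postn at 0, and the other one, Thy1, was lower in ko (adjusted p = 0.0064 in edgeR). Markers of endoderm, mesoderm and trophoblast summed to 0.794 to 2.55 CPM, and neural markers, mostly Nes, to 20.1 to 24.6 CPM. The part of these markers in the differences below was not tested. 1 library stood apart. In p56 the median gene on chromosome 14 was 0.35 higher on the log2 scale than in p42 and p43, while the chromosomes that hold the 10 genes had medians of -0.05 to 0.03. In bulk RNA, a change in the number of cells of a type cannot be told apart from a change in RNA per cell.

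To compare how much of each transcript ES cells hold, levels were expressed as CPM per kilobase of exon. Trim28 had by far the highest level, 706 ± 34.4 in ko and 651 ± 39.7 in wild type (SD, n = 3). It exceeded 99.5% of the tested genes with a known length. Cbx5 followed with 50.04 ± 1.94 in ko and 51.6 ± 1.52 in wild type, so that the mean level of Trim28 was 13.3 times that of the next gene. The order then went on with Ehmt2, Cbx1, Setdb1, Cbx3, Suv39h2, Ehmt1, Suv39h1 and Atf7ip. Wild-type means ranged from 41.6 ± 4.42 for Ehmt2 to 0.757 ± 0.149 for Atf7ip (SD, n = 3).

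Among neighbours in the order, the ranges over the 6 libraries overlapped between Ehmt2 and Cbx1 and between Cbx3 and Suv39h2. The other 7 neighbouring pairs did not overlap. Per kilobase, the genes of the order thus ranged from the top of the ES cell transcriptome to its lower part. Suv39h1 exceeded 44.8% and Atf7ip 18.2% of the tested genes per kilobase, but 48.8% and 46.4% by CPM without a length. Levels per kilobase depend on the length used. With the longest annotated transcript in place of all exons, the wild-type mean was 1.95 for Atf7ip, 71.0 for Cbx1 and 34.9 for Cbx3, and Cbx1 then ranked next to Trim28. Levels of Cbx3 are uncertain for another reason. GENCODE lists 8 pseudogenes named after Cbx3 (the symbol followed by -ps) and 0 named in this way after the other 9 genes. Pseudogenes under other names were not searched, and reads that map to several places were not counted.

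**Figure D1:**
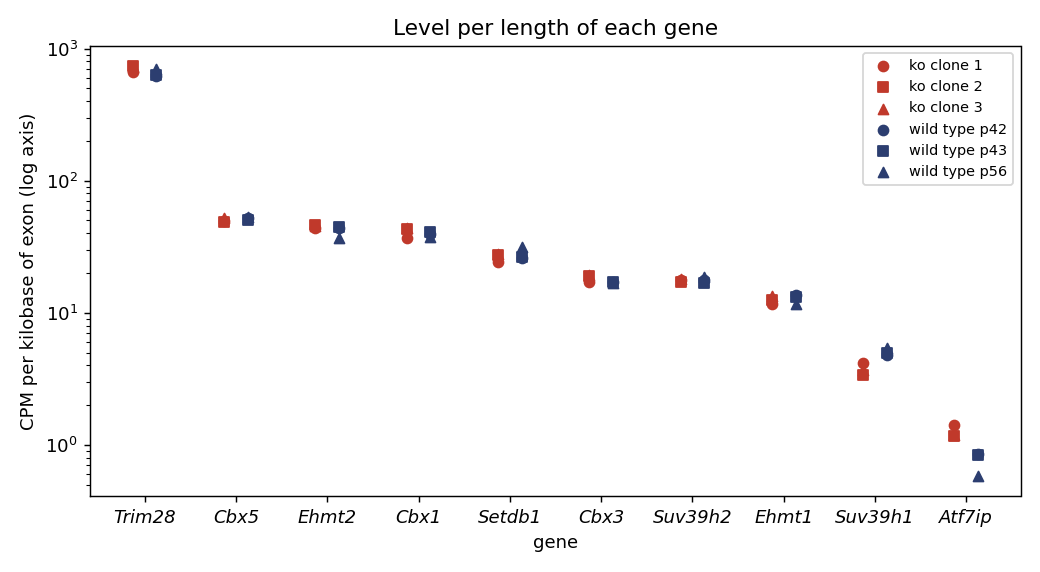
Level of each of the 10 genes in each library, as CPM per kilobase of exon on a log axis, ordered by the mean over the 6 libraries. Red symbols are the 3 ko clones and blue symbols the 3 wild-type cultures. Trim28 lies between 625 and 732, and Atf7ip lies lowest, between 0.585 and 1.41.

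To determine whether the writers, cofactors and readers of H3K9 methylation depend on Morc3, each gene was compared between 3 ko and 3 wild-type libraries. At the threshold of the study, an adjusted p under 0.01, edgeR's quasi-likelihood test called 0 of the 10 genes, against 1.28% of all tested genes. At an adjusted p under 0.05 it called 1, Atf7ip, against 2.71% of all. At an unadjusted p under 0.05 it listed 2, Atf7ip and Suv39h1, against 14.3% of all. DESeq2, the study's own tool, called 1 gene at an adjusted p under 0.01, again Atf7ip, against 1.79% of all genes with an adjusted p. The groups did not overlap in CPM for 3 genes, Suv39h1, Atf7ip and Cbx3, against 19.9% of all tested genes. 5 of the 10 log2 ratios were positive and 5 negative. Their median was 0.03, and that of all tested genes was -0.00010.

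8 of the 10 genes had fold changes near 1, with log2 values from -0.07 to 0.12 and edgeR adjusted p-values from 0.435 to 0.989. The widest bounds of their 95% intervals were 0.838-fold and 1.22-fold. A drop of more than 16.2% or a rise of more than 21.9% therefore lay outside the interval of each of these genes.

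**Figure D2:**
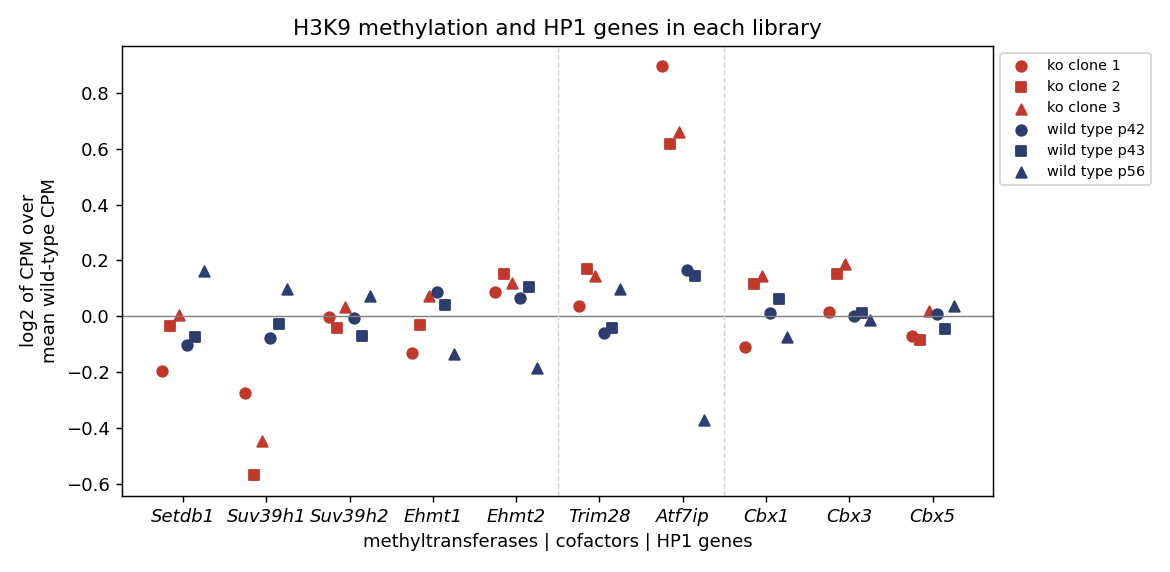
CPM of each gene in each library, as log2 of its ratio to the wild-type mean (grey line at 0). Red symbols are ko clones and blue symbols wild-type cultures. The ko clones lie above all wild-type cultures for Atf7ip and Cbx3 and below them for Suv39h1, and p56 lies lowest of all libraries for Atf7ip, Ehmt1, Ehmt2 and Cbx3.

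Setdb1, the methyltransferase of the ERV pathway, reached 167, 187 and 192 CPM in clones 1, 2 and 3 and 179, 182 and 215 CPM in p42, p43 and p56. The groups overlapped, with clone 1 lowest and p56 highest. The log2 ratio was -0.07 (SE 0.08, adjusted p = 0.754 in edgeR), with a 95% interval of 0.838-fold to 1.08-fold. Without p56 the log2 ratio was 0.02, so that the sign rested on that library.

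Suv39h1 (chromosome X, 8061171 to 8074760, GRCm38, minus strand) had the lowest ratio of the 5 methyltransferase genes. It reached 21.99, 17.9 and 19.5 CPM in clones 1, 2 and 3 and 25.2, 26.1 and 28.5 CPM in p42, p43 and p56. Each ko clone lay below each wild-type culture. The means were 19.8 ± 2.05 CPM in ko and 26.6 ± 1.70 CPM in wild type (SD, n = 3). The log2 ratio was -0.43 (SE 0.10), a fold of 0.745 with a 95% interval of 0.636 to 0.872. With an edgeR adjusted p of 0.055 it did not pass the threshold, and DESeq2 gave an adjusted p of 0.062. Over all alternatives the adjusted p ranged from 0.029 to 0.332, with a negative log2 ratio in 14 of 14 fits.

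The highest of these p-values came from counts that ignore strand, where the log2 ratio of Suv39h1 was -0.21. Suv39h1 was the only one of the 10 genes with many reads on its opposite strand. These came to 108, 116 and 99 counts in clones 1, 2 and 3 and 94, 110 and 104 counts in p42, p43 and p56. They made up 31.2% to 36.4% of the counts of both strands in ko and 21.3% to 22.8% in wild type, whereas the opposite strand held at most 0.620% of both strands, summed over libraries, for the other 9 genes and 0.165% for the median tested gene. GENCODE annotates an antisense gene, Gm14820, over 13449 bases of the Suv39h1 locus. It has no row of its own in the files.

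The ratio of sense to opposite-strand counts of Suv39h1 was 2.20, 1.75 and 2.17 in clones 1, 2 and 3 and 3.70, 3.39 and 3.55 in p42, p43 and p56. The ko clones all lay below the wild-type cultures. On the log2 scale the means differed by -0.80 (ko minus wild type). This ratio does not depend on library size. It was chosen after the counts were seen and is given as a description, with no test. In the fit of opposite-strand counts, scaled to their own libraries, the log2 ratio was 0.34 (SE 0.15, 95% interval 0.04 to 0.64, adjusted p = 0.470 in edgeR), where 0.508% of 1378 tested genes were called at an adjusted p under 0.01. The opposite strand of Suv39h1 was thus not called higher in ko. Trim28 and Cbx5 also passed the filter on that strand, with at most 14 counts per library and edgeR adjusted p-values of 0.938.

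Suv39h2, the paralog of Suv39h1, had nearly equal means in both groups. Its values ranged from 75.6 to 79.7 CPM in ko and from 74.2 to 81.9 CPM in wild type. The ratio was 0.997 with a 95% interval of 0.901 to 1.10 (adjusted p = 0.989 in edgeR). Per kilobase of exon, Suv39h2 was the major form. Suv39h1 made up 19.1%, 16.6% and 17.0% of the summed level of both genes in clones 1, 2 and 3 and 21.4%, 22.7% and 22.5% in p42, p43 and p56. The share was 17.6 ± 1.37% in ko and 22.2 ± 0.739% in wild type (SD, n = 3), without overlap. With the longest transcripts it was 26.1% and 32.2%.

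Ehmt1 and Ehmt2, whose proteins work as a dimer, were not called either. Ehmt1 ranged from 94.98 to 110 CPM in ko and from 94.9 to 111 CPM in wild type. Ehmt2 reached 242, 254 and 248 CPM in clones 1, 2 and 3 and 239, 246 and 201 CPM in p42, p43 and p56. The ko clones and the first 2 wild-type cultures were close to each other, and p56 was 17.2% below the mean of p42 and p43. The log2 ratios were -0.03 (SE 0.08) for Ehmt1 and 0.12 (SE 0.08) for Ehmt2, with edgeR adjusted p-values of 0.913 and 0.553. Without p56 that of Ehmt2 was 0.03. Ehmt2 provided 78.2 ± 1.09% of the summed level per length of both genes in ko and 76.4 ± 0.744% in wild type (SD, n = 3).

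Trim28 reached 2773, 3045 and 2987 CPM in clones 1, 2 and 3 and 2597, 2626 and 2897 CPM in p42, p43 and p56. The groups overlapped because p56 lay above clone 1. The log2 ratio was 0.12 (SE 0.06, adjusted p = 0.435 in edgeR), with a 95% interval of 0.988-fold to 1.19-fold. With 30015 to 37513 counts per library, Trim28 was the most deeply counted of the 10 genes.

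Atf7ip (chromosome 6, 136518789 to 136610850, GRCm38, plus strand) showed the largest difference. It reached 29.2, 24.1 and 24.8 CPM in clones 1, 2 and 3 and 17.6, 17.4 and 12.1 CPM in p42, p43 and p56. Each ko clone lay above each wild-type culture. The means were 26.02 ± 2.77 CPM in ko and 15.7 ± 3.10 CPM in wild type (SD, n = 3). The log2 ratio was 0.73 (SE 0.14), a fold of 1.65 with a 95% interval of 1.33 to 2.05. The edgeR adjusted p was 0.017, which missed the threshold of 0.01.

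The call of Atf7ip depended on the method and on single libraries. It passed the threshold with DESeq2 (adjusted p = 3.5e-04), without the filter on low counts (adjusted p = 0.0013 in edgeR) and without p56 (adjusted p = 0.0014 in edgeR), where 3.13% of all genes were called. In p56, Atf7ip was 30.7% below the mean of p42 and p43, and without p56 its log2 ratio was 0.57. Without clone 1, 2 or 3 the log2 ratio of Atf7ip was 0.64, 0.78 or 0.76, with an edgeR adjusted p of 0.079, 0.073 or 0.084. In these fits 96, 73 and 72 of all genes were called, against 156 with all libraries. The log2 ratio was positive in 14 of 14 alternative fits. These reads came from a gene with 157 to 316 counts per library, and its opposite strand held 0 counts in every library.

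**Figure D3:**
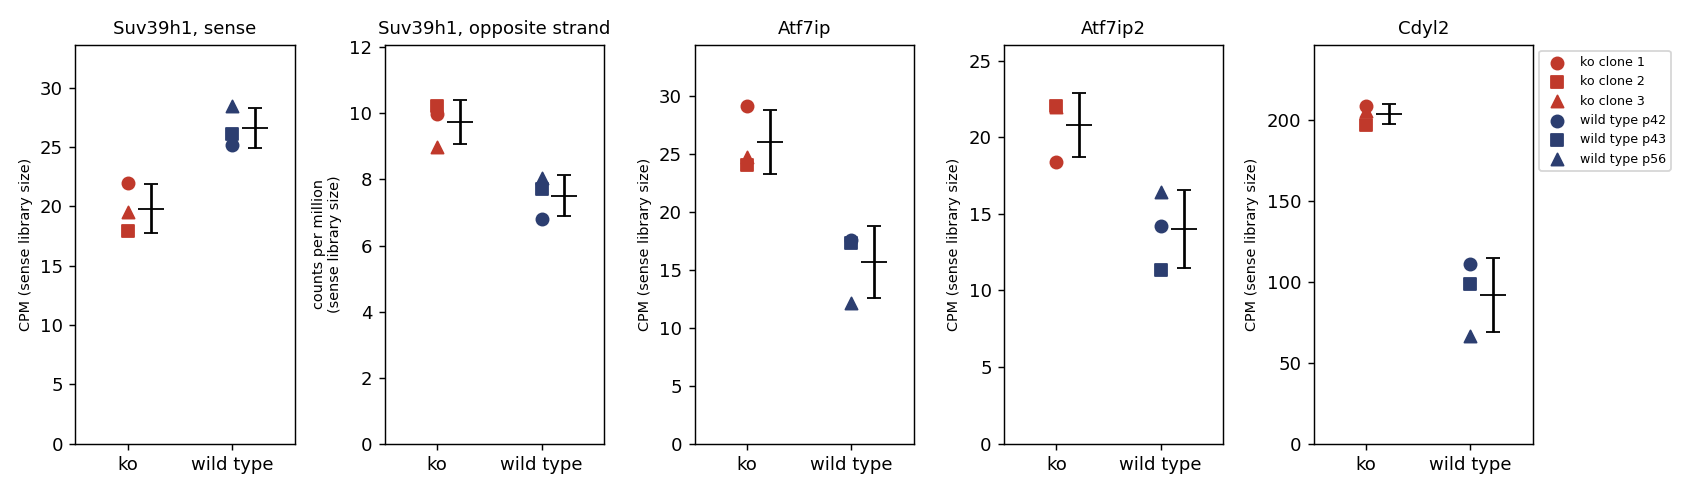
CPM of Suv39h1 on its sense and opposite strand and of Atf7ip, Atf7ip2 and Cdyl2 in each library, all scaled to the sense library size. Symbols are libraries, and the black bar and whiskers give the mean and SD of 3 libraries. The 3 ko clones do not overlap with the 3 wild-type cultures in any of the 5 panels, which were chosen with the values known. In sense CPM, the groups did not overlap for 19.9% of all tested genes. The difference of Cdyl2 is the one of the sense counts past an adjusted p of 0.01 by edgeR.

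None of the HP1 genes was called by edgeR or DESeq2, against 1.28% and 1.79% of all genes with an adjusted p. Cbx3 reached 103, 113 and 116 CPM in clones 1, 2 and 3 and 102, 103 and 101 CPM in p42, p43 and p56. Its ko clones lay above all wild-type cultures, but clone 1 did so by a small margin. The log2 ratio was 0.12 (SE 0.07), with an edgeR adjusted p of 0.465 and a 95% interval of 0.982-fold to 1.20-fold. Cbx1 ranged from 156 to 186 CPM in ko and from 160 to 176 CPM in wild type, with a log2 ratio of 0.05 (SE 0.08, adjusted p = 0.821 in edgeR). Cbx5 ranged from 438 to 471 CPM in ko and from 450 to 477 CPM in wild type, with a log2 ratio of -0.05 (SE 0.06, adjusted p = 0.788 in edgeR).

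Per kilobase of exon, Cbx5 made up 45.7 ± 1.86% of the HP1 transcripts in ko and 47.7 ± 1.61% in wild type (SD, n = 3). Cbx1 followed with 37.4 ± 1.66% and 36.5 ± 1.54%. Cbx3 had 16.9 ± 0.232% in ko and 15.8 ± 0.0920% in wild type, without overlap between the groups. With the longest transcripts Cbx1 had the largest share, 45.2% in ko and 44.7% in wild type, so that the leading HP1 gene depended on the length used.

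Between libraries of a group, the median SD of log2 CPM of the 10 genes was 0.10 in ko and 0.09 in wild type. Over all tested genes it was close to this, 0.11 and 0.12, without matching for level. In wild type, p42 and p43 differed by at most 4.41% of their mean for all 10 genes. p56 ranged from 30.7% below the mean of p42 and p43 for Atf7ip to 19.0% above it for Setdb1. Its part in the differences was measured by leaving it out, which left Setdb1 and Suv39h2 with positive log2 ratios of 0.02 and 0.04 and changed no other sign.

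Genes that start head to head with a gene of the set were also examined, by annotated starts on the opposite strand within 1000 bases. Hnrnpa2b1, which encodes an RNA-binding protein and starts 466 bases from Cbx3 in GENCODE, had a log2 ratio of 0.02 (SE 0.09, adjusted p = 0.946 in edgeR). Hnrnpa1, another RNA-binding protein gene, starts 616 bases from Cbx5 and had one of -0.14 (SE 0.13, adjusted p = 0.715 in edgeR). It reached only 172 to 315 counts per library, under a counting method that leaves out reads with several map positions. The complement gene C2 starts 204 bases from Ehmt2 in GENCODE, whereas no such neighbour of Ehmt2 was found in RefSeq. C2 had a log2 ratio of 0.52 (SE 0.33, adjusted p = 0.548 in edgeR). It had 51 counts in clone 1 against 22 to 37 in the other libraries. None of these 3 neighbours was called by edgeR, against 1.28% of all tested genes. Slc27a5 did not pass the filter. It was a neighbour of Trim28 in GENCODE only, where Trim28 starts at 12999114, against 13024152 in RefSeq. Gm31649 starts 437 bases from Trim28 and Gm44140, a noncoding gene, 98 bases from Atf7ip in RefSeq. These 2 have no row in the files and were not analysed here.

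Around the 10 genes, 3 lists of further pathway genes were counted. Among 12 other H3K9 methyltransferase genes and partners, 10 were tested, 1 was higher in ko, 0 were lower and 9 did not pass the test, where 1.28% of all tested genes were called. At an unadjusted p under 0.05 there were 4 of 10, against 14.3% of all. The called gene was Cdyl2, which encodes a chromodomain protein that binds methylated H3K9. Cdyl2 reached 209, 197 and 206 CPM in clones 1, 2 and 3 and 111, 98.5 and 66.9 CPM in p42, p43 and p56. All ko clones lay above all wild-type cultures, and p56 was again lowest. Its log2 ratio was 1.14 (SE 0.14; adjusted p = 6.0e-04 in edgeR), a fold of 2.21 with a 95% interval of 1.79 to 2.72. Cdyl2 was called in all 14 alternative fits, with adjusted p-values up to 0.00995 without clone 3. The list had a median log2 ratio of 0.05.

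3 further genes of this list are named after their values were seen. Atf7ip2, the paralog of Atf7ip, reached 18.4, 22.1 and 21.96 CPM in clones 1, 2 and 3 and 14.2, 11.3 and 16.4 CPM in p42, p43 and p56. Its log2 ratio was 0.58 (SE 0.14), with an edgeR adjusted p of 0.054. When single libraries were left out, the adjusted p ranged from 7.5e-04 without p56 to 0.264 without clone 2. Unlike Atf7ip, Atf7ip2 was highest in p56 among the wild-type cultures. The share of Atf7ip in the summed level per length of both genes was 22.8 ± 3.74% in ko and 21.2 ± 5.93% in wild type (SD, n = 3), which overlapped.

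Trim24, which encodes a relative of Trim28, reached 164, 183 and 183 CPM in clones 1, 2 and 3 and 124, 120 and 148 CPM in p42, p43 and p56. Its log2 ratio was 0.43 (SE 0.09) with an edgeR adjusted p of 0.018, and it was called by DESeq2 (adjusted p = 4.1e-04) and without the filter. When single libraries were left out, the edgeR adjusted p ranged from 1.3e-05 without p56, where it was called, to 0.126 without clone 3.

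Prdm16, which encodes a PR-domain zinc finger protein, differed in the other direction. It reached 4.25, 4.86 and 4.17 CPM in clones 1, 2 and 3 and 6.23, 4.97 and 6.79 CPM in p42, p43 and p56, without overlap. Its log2 ratio was -0.43 (SE 0.18, adjusted p = 0.280 in edgeR), and the adjusted p was 0.207 to 0.616 when single libraries were left out.

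Of 11 H3K9 demethylase genes, 10 were tested and 0 were called by edgeR, against 1.28% of all tested genes. At an unadjusted p under 0.05 there were 4 of 10, against 14.3% of all. Kdm4c and Kdm3a, which both encode JmjC-domain demethylases, had the smallest p-values of this list. Their log2 ratios were 0.22 (SE 0.07, adjusted p = 0.126 in edgeR) and 0.25 (SE 0.09, adjusted p = 0.222 in edgeR). The log2 ratios of the list ranged from -0.49 to 0.25, with 6 positive and 4 negative, and their median was 0.01. DESeq2 called 0 genes of this list at an adjusted p under 0.01, against 1.79% of all genes with an adjusted p.

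Of 16 genes for HP1-binding and other heterochromatin proteins, 16 were tested and 0 were called by edgeR or DESeq2. Over all genes with an adjusted p, edgeR called 1.28% and DESeq2 1.79%. At an unadjusted p under 0.05 there was 1 of 16, against 14.3% of all tested genes. Lrif1, whose protein binds HP1, had a log2 ratio of -0.38 (SE 0.14, adjusted p = 0.211 in edgeR). Chaf1b, a subunit of the chromatin assembly factor CAF-1, had one of 0.12 (SE 0.06, adjusted p = 0.454 in edgeR). The log2 ratios of this list ranged from -0.38 to 0.14. The median was 0.04.

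**Figure D4:**
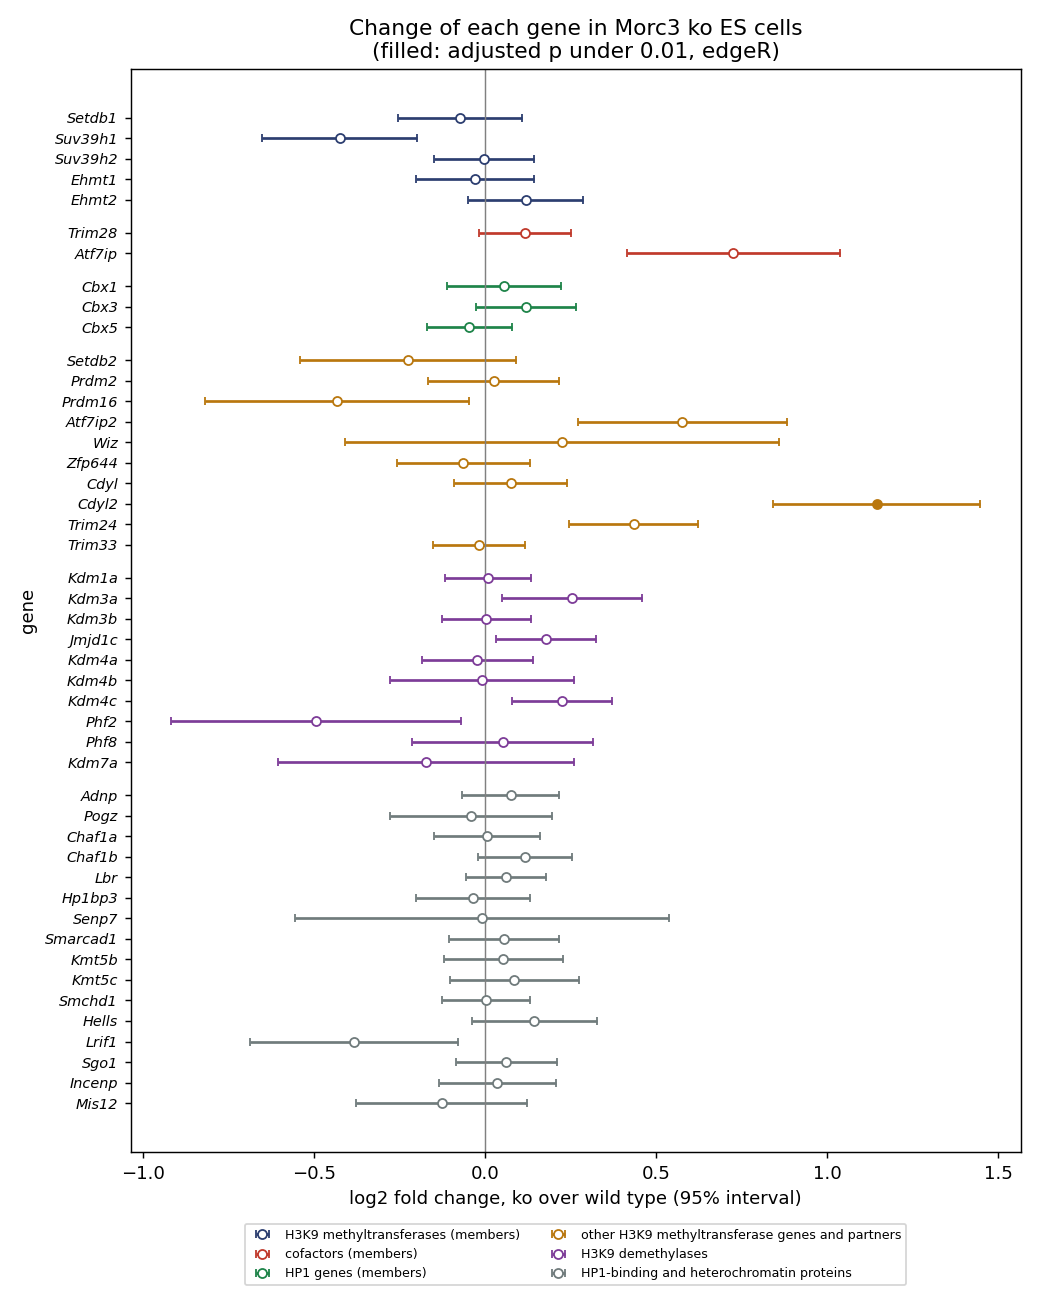
Log2 fold change of ko over wild type with its 95% interval for each tested gene of the set and of the 3 further lists, coloured by list. The filled symbol, Cdyl2 at 1.14, is the one gene called by edgeR at 0.01. The intervals of Atf7ip and Suv39h1 leave out 0 on opposite sides. Intervals are not adjusted for the number of genes. Those of 4 of 10, 4 of 10 and 1 of 16 tested genes in the 3 further lists also leave out 0. Over all tested genes, 14.3% had an unadjusted p under 0.05 in edgeR.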

How the data were processed

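Total RNA of 3 ko and 3 wild-type ES cell libraries was depleted of ribosomal RNA and sequenced as strand-specific paired-end reads. The authors aligned the reads to mm10 with STAR, and the deposited files hold raw counts per gene and strand that STAR made from uniquely mapped reads. The annotation behind these counts is not given in the sources used here. The authors tested genes with DESeq2. The last column was taken as the sense strand, since it held 10740618 to 14123131 counts per library against 136615 to 172743 in the other. The first 4 lines of each file count unassigned reads, 36.2% to 37.7% of reads per library, and were left out.

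Sense counts of all genes were fitted with edgeR 4.0.16 (quasi-likelihood test, TMM scaling, filterByExpr with a minimum count of 10, group as the only term) in R 4.3.3. P-values were two-sided and adjusted over all tested genes by the Benjamini-Hochberg method, and genes were called under 0.01. The SE was taken from the F statistic, and 95% intervals cover the spread between libraries. Alternatives were DESeq2 1.42.0, limma-voom (limma 3.58.1), a robust fit, 3 other scalings, no filter, counts that ignore strand, a threshold of 0.05 and leaving out each library. Gene lengths came from GENCODE M21 (GRCm38) and start regions from RefSeq. The named genes were the 10 genes of the set, Morc3, neighbours that start head to head and passed the filter, and from each further list the called genes or else the 2 with the smallest p. Atf7ip2, Trim24 and Prdm16 lie outside this rule and were named after their values were seen. The genes and lists were chosen with earlier results of these data known, and so were the motifs and the sense to opposite-strand ratio of Suv39h1. Protein sequences were not analysed here.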

Additional observations from a re-analysis of the deposited data

How the results depend on the processing

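The number of called genes among the 10 rose from 0 to 1 with no filter on low counts, with DESeq2 and at a threshold of 0.05, and was 0 to 1 over the 6 fits that leave out a library. In each case the gene was Atf7ip. The number of negative fold changes, 5 of 10, was 3 to 5 when libraries were left out, with 3 without p56. Of the other H3K9 methyltransferase genes and partners, 2 were called with no filter, with DESeq2 and at a threshold of 0.05, and 1 to 3 when libraries were left out, with 3 without p56. Over all genes, edgeR called 156, against 286 with no filter, 254 with DESeq2, 331 at a threshold of 0.05 and 72 to 385 when libraries were left out, with 385 without p56. Morc3 was not called by the robust fit (log2 fold change -1.28, adjusted p = 0.018). The cause of these changes was not tested. Atf7ip, Ehmt2, Trim28, Cbx1 and Cbx3 kept a positive and Suv39h1 and Cbx5 a negative log2 fold change in 14 of 14 fits, whereas Setdb1 was positive in 1, Ehmt1 in 2 and Suv39h2 in 4 of them. No paired analysis was possible because no number in the labels links a ko clone to a wild-type culture.

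There were 3 libraries per group, and the ko lines are single clones against cultures not labelled as clones. Cloning, transfection and puromycin selection therefore cannot be told apart from the loss of Morc3. Suv39h1 and Atf7ip had the fewest counts of the 10 genes, 157 to 373 per library. Reads that map to Cbx3 and to another place as well were not counted.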
